A study of Mus musculus with 6 samples.

Results

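The genes of UDP-GlcNAc synthesis were described in mouse liver RNA. They are 9 of the 52550 gene rows of the count table: Gfpt1, Gfpt2, Gnpnat1, Pgm3, Uap1, Uap1l1, Nagk, Renbp and Ogt. They were taken by gene symbol as members of the hexosamine pathway, a set put together around Uap1l1, whose level was higher in every transgenic liver. The set was thus selected on the measured counts of Uap1l1 in these 6 livers. The values of Uap1l1 are therefore a description and carry no test, while the other 8 members were taken by pathway. All 9 had enough counts to be tested.

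Liver samples came from 3 Slc7a11-LTG mice (TG) and 3 control mice (WT), 1 library per mouse. All were male, 8 weeks of age and had been fed an MCD diet (short of methionine and choline) for 1 week, so every comparison here is between livers on that diet. Slc7a11 encodes xCT, a subunit of the cystine-glutamate exchanger. The labels do not spell out LTG and name neither the promoter that drives the transgene nor the strain. Slc7a11 had 72729, 24359 and 57242 counts in the TG livers and 46, 44 and 204 counts in the WT livers, so it was high in every library labelled TG. Coordinates are those of GENCODE M21 on GRCm38 (mm10). Values of single livers are given throughout in the order of replicates 1, 2 and 3.

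UDP-GlcNAc is the activated form of N-acetylglucosamine, the sugar that cells use to build glycoproteins, proteoglycans, hyaluronan and GPI anchors. Cells make it from fructose 6-phosphate and glutamine by the hexosamine pathway, and they also recover the free sugar from glycans broken down in lysosomes. In liver the pathway takes a small part of the glucose that enters cells, feeds the glycosylation of secreted plasma proteins, and supplies the O-GlcNAc mark on nuclear and cytosolic proteins.

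The libraries held 16016640 to 17463329 counts. Levels are given in CPM, a gene's counts among each 1000000 of its library, after scaling by TMM, a method that corrects for a few genes taking a large part of a library. A count of 3, taken as the least that can be told from 0, is 0.172 to 0.187 CPM before that scaling, for counting error only. On the first principal component, with 42.9% of the variance, TG replicate 3 (2.04) lay between the other TG livers (-38.3 and -68.3) and the WT livers (10.2 to 63.8). The hepatocyte genes Alb, Apoa1, Ttr, Serpina1c, Cps1 and Hnf4a summed to 81343 to 93777 CPM in TG and 85464 to 160502 CPM in WT, so the genes that define hepatocytes were abundant in both groups. The 14 macrophage markers summed to 2470, 4216 and 765 CPM in the TG livers against 537, 451 and 753 CPM in the WT livers, and 5 of the 14 were higher in all TG livers than in all WT livers, as were 9.22% of genes tested. None of the 14 was at 0 in all libraries. The 7 neutrophil markers summed to 73.1, 121 and 6.3 CPM in the TG livers against 8.89, 3.1 and 5.56 CPM in the WT livers.

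The comparison of the groups used edgeR's quasi-likelihood test with Benjamini-Hochberg adjustment over 14031 genes. At an adjusted p of 0.05 the test called 0 genes, or 0.0%; 1551 genes (11.1%) had an unadjusted p below 0.05. Slc7a11 itself, the transgene, had an edgeR adjusted p of 0.164 at a fitted 512-fold difference (DESeq2 adjusted p = 3.19e-51), so a gene that misses the threshold here is not shown to be alike in the groups. DESeq2 called 390 genes (2.78%; 2.52% higher in TG) and limma voom 1 (0.00713%). Of the 8 members beside Uap1l1, edgeR called 0, and DESeq2 and limma voom called 0 as well, though DESeq2 gave no adjusted p for Gfpt2. At an unadjusted p below 0.05 there were 2 of the 8, Renbp higher in TG (background 8.68%) and Gnpnat1 lower in TG (background 2.37%). In 3 of the 8, Nagk, Renbp and Gnpnat1, the TG and WT livers did not overlap, against 15.4% of genes tested. With so few members these counts say nothing about the pathway as a set. The median log2 fold change, TG minus WT, was -0.02 over the 8 and -0.03 over all genes tested, and 4 of the 8 were above 0 and 4 below. Single libraries moved the median of the 8, to 0.26 when WT replicate 3 was left out, to 0.11 for WT replicate 1 and to -0.16 for WT replicate 2.

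**Figure D1:**
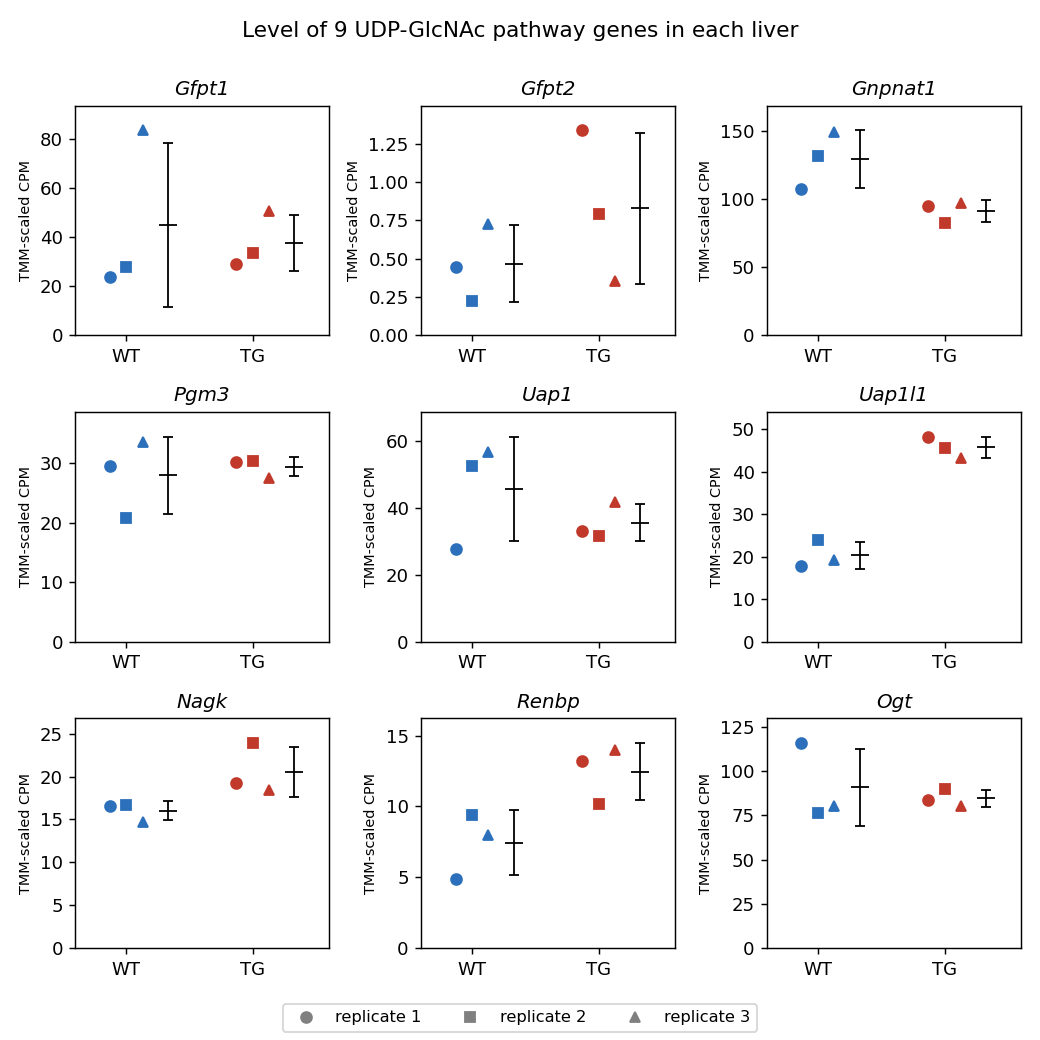
TMM-scaled CPM (vertical axis, from 0) of the 9 genes in each of the 3 WT and 3 TG livers; each symbol is 1 mouse, its shape the replicate number, and the black bar is the group mean with its SD. Uap1l1 lies at 43.3 to 48.2 CPM in TG and 17.7 to 24.0 CPM in WT, while Gfpt1 is spread mainly by WT replicate 3 at 83.6 CPM.

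Gfpt1 and Gfpt2 encode the 2 forms of the glutamine-fructose-6-phosphate transaminase, which commits fructose 6-phosphate to the pathway and sets its rate. Gfpt1 (ENSMUSG00000029992, chromosome 6, 87042846 to 87092197, plus strand) measured 29.0, 33.4 and 50.7 CPM in the TG livers against 23.7, 27.9 and 83.6 CPM in the WT livers. The groups overlapped, and WT replicate 3 stood above every other liver. The log2 fold change of Gfpt1 was -0.26 with an SE of 0.49 (edgeR adjusted p = 0.882), and without WT replicate 3 it turned to 0.55. Gfpt2 (ENSMUSG00000020363, chromosome 11, 49794178 to 49838613, plus strand) held 22, 14 and 7 counts in TG and 7, 3 and 14 counts in WT, and the WT liver with 3 counts was at the least that can be told from 0. The mean level of Gfpt2 was 0.828 ± 0.491 CPM in TG livers against 0.467 ± 0.251 CPM in WT livers (SD, n = 3 each), with a log2 fold change of 0.77 and an SE of 0.64 (edgeR adjusted p = 0.709). TG replicate 3 lay within the WT range.

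The promoters of both genes are shown because the 2 forms of 1 enzyme were so unequal in these livers and ran differently across them. Each stretch is the 250 bases before the start in RefSeq (build GRCm38.p6), with capitals marking ACGTG on either strand, a core that the unfolded protein response factor XBP1 can bind. The windows are chr6:87042596-87042845 for Gfpt1 and chr11:49793905-49794154 for Gfpt2, both on the plus strand.
Gfpt1: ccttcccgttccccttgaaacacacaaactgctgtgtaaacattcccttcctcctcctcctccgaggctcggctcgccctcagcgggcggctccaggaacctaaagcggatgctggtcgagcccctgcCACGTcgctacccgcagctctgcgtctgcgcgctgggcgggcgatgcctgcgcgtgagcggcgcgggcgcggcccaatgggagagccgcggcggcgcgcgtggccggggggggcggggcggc
Gfpt2: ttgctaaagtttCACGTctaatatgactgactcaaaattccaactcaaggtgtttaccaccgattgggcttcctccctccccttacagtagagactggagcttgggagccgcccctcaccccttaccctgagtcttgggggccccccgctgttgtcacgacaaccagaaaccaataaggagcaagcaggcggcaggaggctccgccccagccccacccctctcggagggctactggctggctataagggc
Each window held ACGTG 1 time, 122 bases before the start in Gfpt1 and 238 bases before it in Gfpt2. Of 32851 promoter windows of this length, 16.6% held it on either strand, so it is common. Of the 7 members with an entry, the others, Pgm3, Uap1, Nagk, Renbp and Ogt, had none in these windows; Uap1l1 and Gnpnat1 had no entry. None of the 7 held TGATGNAA, the element that ATF4 can bind (3.45% of windows), or the endoplasmic reticulum stress element, CCAAT and CCACG at their fixed spacing (0.113% of windows). A match is no proof of binding.

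Gfpt1 made up nearly all of the transaminase transcripts in every liver. Counts divided by merged exon length put the share of Gfpt2 at 7.67%, 4.09% and 1.25% in the TG livers and at 3.27%, 1.44% and 1.55% in the WT livers. The lowest share of all was in a TG liver. The 95% Wilson intervals, which cover counting error only, ran from 5.16% to 11.3% in TG replicate 1 and from 0.607% to 2.55% in TG replicate 3. The mean share was 4.34% ± 3.22 in TG and 2.09% ± 1.03 in WT (SD, n = 3 each; exact permutation test, two-sided, p = 0.4, where 3 against 3 mice allow no p below 0.1).

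Gnpnat1 encodes the acetyltransferase that turns glucosamine 6-phosphate into N-acetylglucosamine 6-phosphate, and Pgm3 the mutase that moves its phosphate. Gnpnat1 (ENSMUSG00000037722, chromosome 14, 45376334 to 45404913, minus strand) measured 95.1, 82.6 and 97.7 CPM in the TG livers against 108, 132 and 150 CPM in the WT livers. All TG livers were below all WT livers, as they were for 6.14% of genes tested. The log2 fold change of Gnpnat1 was -0.50 with an SE of 0.19 (edgeR unadjusted p = 0.0315, adjusted p = 0.395). Scaled by library size only, TG replicate 3 (112 CPM) lay above WT replicates 1 and 2 (101 and 109 CPM), so that the groups overlapped. Styx, annotated on the opposite strand, shares 3878 of the 4735 merged exon bases of Gnpnat1, and without a stated strand setting their reads cannot be told apart; Styx itself was given 32 to 62 counts per library.

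Pgm3 (ENSMUSG00000056131, chromosome 9, 86554377 to 86571842, minus strand) measured 30.2, 30.4 and 27.6 CPM in the TG livers against 29.5, 20.8 and 33.5 CPM in the WT livers. The TG livers all lay within the WT range. The log2 fold change of Pgm3 was 0.07 with an SE of 0.20 (edgeR adjusted p = 0.921). Pgm3 shares 1270 of its 4487 merged exon bases with Dop1a on the opposite strand, and without a stated strand setting reads there cannot be told apart. Dop1a was given 324 to 621 counts per library, against 275 to 644 for Pgm3.

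Uap1 encodes the pyrophosphorylase of the last step, which joins N-acetylglucosamine 1-phosphate to UTP. Uap1l1 encodes a protein related to it in sequence, whose own activity is less well known. Uap1 (ENSMUSG00000026670, chromosome 1, 170141938 to 170174957, minus strand) measured 33.2, 31.4 and 41.7 CPM in the TG livers against 27.7, 52.6 and 56.5 CPM in the WT livers. WT replicate 1 was the lowest liver and the other WT livers the highest, so the groups overlapped, with a log2 fold change of -0.36 and an SE of 0.28 (edgeR adjusted p = 0.682).

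Uap1l1 (ENSMUSG00000026956, chromosome 2, 25359889 to 25365682, minus strand) held 794, 807 and 853 counts in the TG livers and 279, 317 and 368 counts in the WT livers. In CPM these were 48.2, 45.6 and 43.3 in TG and 17.7, 24.0 and 19.1 in WT. The TG livers lay close to each other and far above the WT livers, TG replicate 3 included. The fold was 2.26 (log2 fold change 1.17, SE 0.17), a description of the values by which the set was chosen. Leaving out each library in turn gave log2 fold changes of 1.08 to 1.31, and library size only gave 1.30. No annotated exon of another gene overlaps those of Uap1l1.

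The balance between the 2 related genes was unlike in the groups. Per length, Uap1l1 made up 58.9%, 58.8% and 50.6% of the summed Uap1 and Uap1l1 transcripts in the TG livers, against 38.6%, 31.0% and 25% in the WT livers. The lowest TG share, that of TG replicate 3, had a 95% Wilson interval of 48.2% to 52.9%, and the highest WT share, that of WT replicate 1, one of 35.1% to 42.2%, for counting error within 1 liver and not for the spread between mice. The mean share was 56.1% ± 4.80 in TG and 31.5% ± 6.81 in WT (SD, n = 3 each), with no test since Uap1l1 chose the set. With the length of the longest transcript of each gene in place of all merged exons, the shares were 47.3% ± 4.81 and 24.5% ± 5.84, so whether Uap1l1 is the larger part in TG livers depends on the length used.

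**Figure D2:**
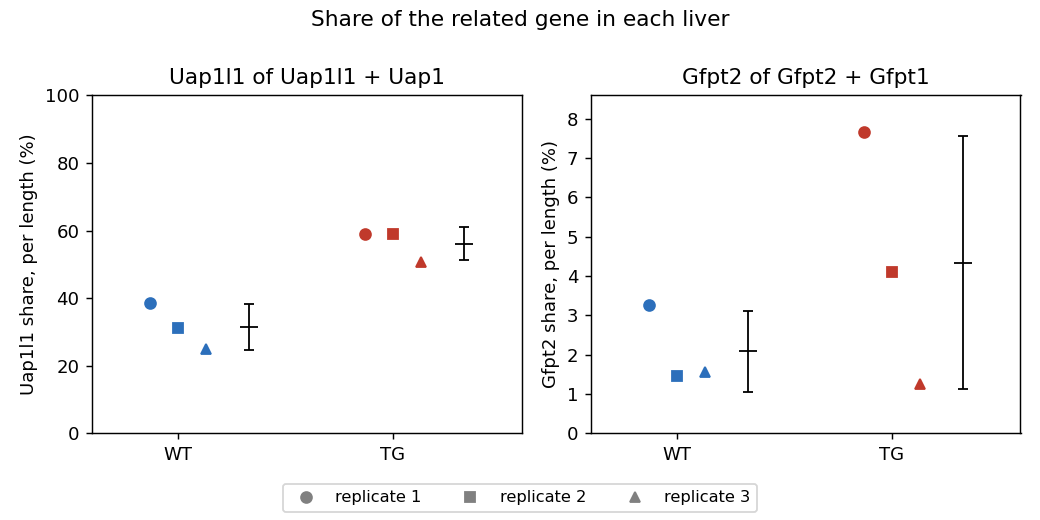
Share of Uap1l1 in Uap1 plus Uap1l1 (left) and of Gfpt2 in Gfpt1 plus Gfpt2 (right), in percent of counts per merged exon length, for each WT and TG liver; symbols are mice, bars the mean with SD. The Uap1l1 shares run from 50.6% to 58.9% in TG and from 25% to 38.6% in WT, whereas the Gfpt2 shares overlap.

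Nagk and Renbp act in salvage. Nagk encodes the kinase that phosphorylates free N-acetylglucosamine, and Renbp the epimerase that interconverts N-acetylglucosamine and N-acetylmannosamine. Renbp (ENSMUSG00000031387, chromosome X, 73922121 to 73930850, minus strand) measured 13.2, 10.2 and 14.0 CPM in the TG livers against 4.89, 9.38 and 8.01 CPM in the WT livers. All TG livers were above all WT livers, by a narrow gap between TG replicate 2 and WT replicate 2. The log2 fold change of Renbp was 0.75 with an SE of 0.29, a 1.68-fold difference (edgeR unadjusted p = 0.0351, adjusted p = 0.404). Nagk (ENSMUSG00000034744, chromosome 6, 83794982 to 83804018, plus strand) measured 19.2, 23.9 and 18.5 CPM in the TG livers against 16.6, 16.7 and 14.7 CPM in the WT livers, again with all TG livers above all WT livers. Its log2 fold change was 0.36 with an SE of 0.18 (edgeR unadjusted p = 0.0773, adjusted p = 0.517).

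Of the 8 members beside Uap1l1, Renbp and Nagk were thus the 2 with all TG livers above all WT livers, an arrangement found in 9.22% of genes tested, and both kept it with library size only. Neither of the 2 salvage genes passed the test. The promoter of Renbp, the salvage gene with the larger difference, is chrX:73930851-73931100 on the minus strand (RefSeq, GRCm38.p6). It held none of the motifs searched, so no letter is in capitals.
Renbp: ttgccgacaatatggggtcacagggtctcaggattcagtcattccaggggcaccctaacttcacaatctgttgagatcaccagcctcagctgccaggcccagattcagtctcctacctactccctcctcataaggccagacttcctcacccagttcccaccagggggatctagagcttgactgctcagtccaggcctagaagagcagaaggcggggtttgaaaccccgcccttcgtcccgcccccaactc

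Ogt encodes the transferase that places O-GlcNAc on nuclear and cytosolic proteins. Ogt (ENSMUSG00000034160, chromosome X, 101640060 to 101684351, plus strand) measured 83.8, 89.7 and 80.1 CPM in the TG livers against 116, 76.4 and 80.2 CPM in the WT livers. WT replicate 1 stood above the rest. The log2 fold change was -0.10 with an SE of 0.20 (edgeR adjusted p = 0.887); it was 0.11 without WT replicate 1, and 0.02 with library size only. Oga, the hydrolase that removes the mark, averaged 59.0 ± 3.16 CPM in TG livers against 58.9 ± 14.6 CPM in WT livers (log2 fold change 0.00, SE 0.20; edgeR adjusted p = 1.00). Eogt, which adds the sugar to secreted and membrane proteins in the endoplasmic reticulum, averaged 8.17 ± 1.86 against 6.13 ± 2.31 CPM (adjusted p = 0.706), so none of these enzymes differed beyond the spread between mice.

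**Figure D3:**
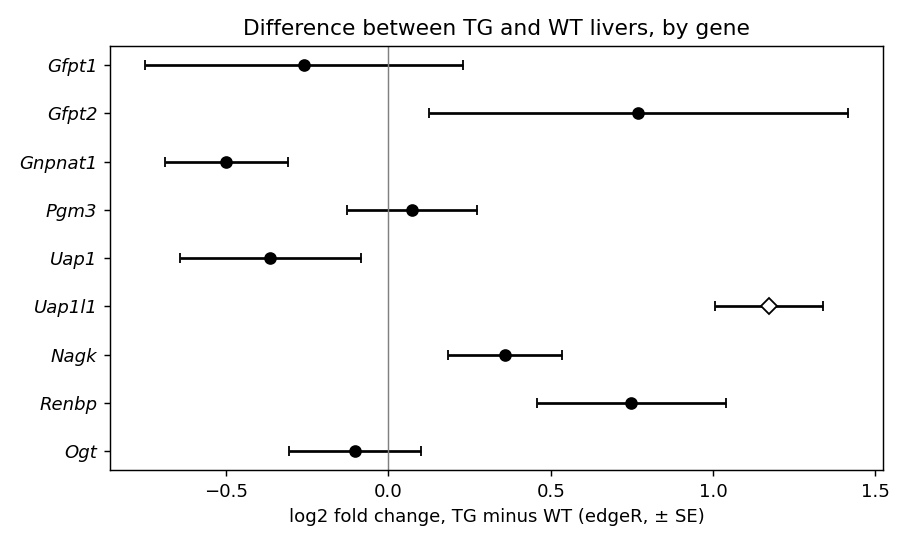
Log2 fold change, TG minus WT, of the 9 genes from edgeR (points) with its standard error (bars); the open diamond is Uap1l1, which chose the set and has no test. Uap1l1 lies at 1.17, Renbp at 0.75 and Gnpnat1 at -0.50, and the bars of Gfpt1, Pgm3 and Ogt cross 0.

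By level per kilobase of merged exon, Gnpnat1 was the most abundant member in both groups, at 19.4 ± 1.71 CPM per kilobase in TG and 27.4 ± 4.46 in WT (SD, n = 3 each). In WT livers it was followed by Uap1 (11.4 ± 3.88), Ogt (11.3 ± 2.70), Pgm3 (6.23 ± 1.45), Uap1l1 (4.98 ± 0.807), Gfpt1 (4.47 ± 3.32), Nagk (3.42 ± 0.239) and Renbp (2.98 ± 0.923), with Gfpt2 last at 0.0834 ± 0.0449. In TG livers Uap1l1 came second, at 11.2 ± 0.602 CPM per kilobase, ahead of Ogt (10.5 ± 0.601) and Uap1 (8.84 ± 1.38). That place depends on the length used. Merged exons and longest transcript measure 8045 and 5384 bases for Ogt, 4011 and 2311 for Uap1, and 4071 and 3349 for Uap1l1. By the longest transcript, Uap1l1 averaged 47.3% of the summed Uap1 and Uap1l1 transcripts in TG livers, so it did not lead Uap1. In WT livers the values of neighbours in this order overlapped for Uap1 and Ogt and for each step from Pgm3 down to Renbp. In TG livers they overlapped for Uap1l1 and Ogt, Ogt and Uap1, Renbp and Nagk, and Nagk and Gfpt1. Gnpnat1 lay apart from the next gene in both groups, as did Gfpt2.

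Across the 6 livers, the synthesis genes did not run together with Uap1l1. The correlation of log2 CPM with Uap1l1 was 0.86 for Renbp (Spearman's rank correlation 0.83) and 0.81 for Nagk (rank correlation 0.89), but -0.10 for Gfpt1, -0.29 for Uap1 and -0.78 for Gnpnat1. Gnpnat1 and Uap1 had an r of 0.79, and Gnpnat1 and Nagk of -0.91. These are descriptions over 6 libraries that share the split into TG and WT, not tests.

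Summed macrophage marker RNA was far higher in TG replicates 1 and 2 than in TG replicate 3, whereas Uap1l1 was high in all 3. The sum in TG replicate 3, 765 CPM, was above that of every WT liver and 1.32 times their mean, with WT replicate 3 nearest at 753 CPM. The match of these 2 livers is in the sum only, not marker by marker. Uap1l1 lay at 43.3 CPM in TG replicate 3 against 19.1 CPM in WT replicate 3, and Renbp at 14.0 against 8.01 CPM. Renbp was lower in TG replicate 2, which had the most macrophage marker RNA, than in TG replicate 3. Nagk was highest in TG replicate 2. The 10 stellate cell and fibroblast markers summed to 441, 382 and 418 CPM in the TG livers against 368, 274 and 369 CPM in the WT livers, and 5 of the 10 were higher in all TG livers (9.22% of genes tested). The 8 endothelial markers summed to 247, 260 and 257 CPM in the TG livers against 275, 95.1 and 208 CPM in the WT livers, with 3 of the 8 higher in all TG livers. No marker of either list was at 0 in all libraries. In bulk RNA, a change in the number of cells of a type and a change in RNA per cell cannot be told apart. The part of other cell types in these differences was not tested.

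**Figure D4:**
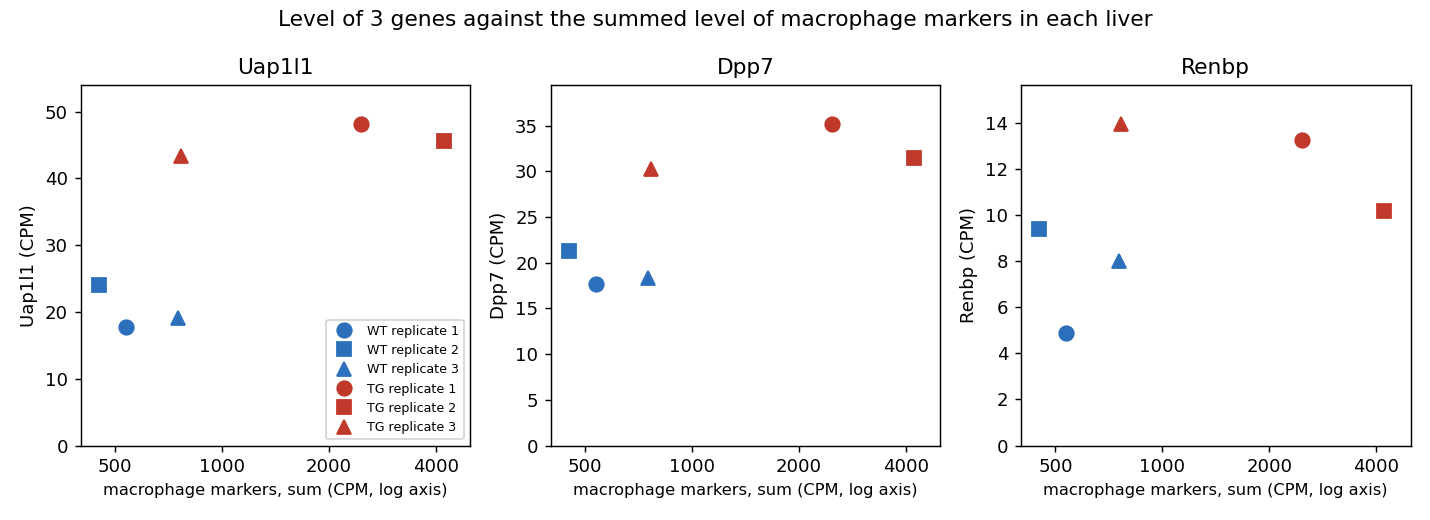
Level of Uap1l1, Dpp7 and Renbp (vertical axes, TMM-scaled CPM) against the summed level of 14 macrophage markers (horizontal log axis, CPM) in each liver; colour gives the group and shape the replicate. TG replicate 3 and WT replicate 3 have the nearest marker sums, 765 and 753 CPM, and Uap1l1 levels of 43.3 and 19.1 CPM.

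The gene whose levels were most like those of Uap1l1 was Dpp7, its neighbour on chromosome 2. Among 10008 genes with a mean of at least 5 CPM, the genes with the highest Pearson r of log2 CPM with Uap1l1 over the 6 libraries included Dpp7 (0.995), Flot1 (0.989), Plekhg2 (0.986) and Emp2 (0.976). Dpp7 encodes a dipeptidyl peptidase of lysosomes and secretory vesicles, Flot1 a scaffold protein of membrane microdomains, Plekhg2 a guanine nucleotide exchange factor and Emp2 a tetraspan membrane protein. Dpp7 measured 35.2, 31.5 and 30.3 CPM in the TG livers against 17.7, 21.3 and 18.3 CPM in the WT livers. It ordered the 6 livers exactly as Uap1l1 did (rank correlation 1.0), with a smaller fold, 1.70. So did Plekhg2, which lies on chromosome 7 (rank correlation 1.0), with a fold of 1.88. Since these genes were chosen for their likeness to Uap1l1, no test is given.

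Dpp7 is annotated at 25352276 to 25356359 on the minus strand (ENSMUSG00000026958, mm10), so that transcription of Uap1l1 runs towards it. The coordinates of the end of Uap1l1 and the start of Dpp7 differ by 3530. The annotated exons do not overlap. Within 50 kilobases on either side of Uap1l1 lay 8 other genes of the table, 4 of them with enough counts to test. Man1b1, on the opposite strand beyond Dpp7, averaged 49.99 ± 5.48 CPM in TG livers against 44.5 ± 1.81 CPM in WT livers (SD, n = 3 each; edgeR adjusted p = 0.725), with overlapping groups. On the other side, Entpd2 lay at 4.65 ± 1.22 against 2.86 ± 0.995 CPM (edgeR adjusted p = 0.556) and Npdc1 at 9.93 ± 5.50 against 4.61 ± 2.40 CPM (adjusted p = 0.511), and their groups overlapped too. Of the 4 tested neighbours, Dpp7 alone had all TG livers above all WT livers, as had 9.22% of genes tested. Dpp7 was named for its likeness to Uap1l1, which was chosen for that arrangement, so this is a description only.

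The Dpp7 promoter is shown because most of it lies in the gap between the 2 genes, at chr2:25356333-25356582 on the minus strand (RefSeq, GRCm38.p6, 250 bases before the start). Capitals mark CACGTG, the palindromic E-box at the core of the element through which TFEB and related factors act on many lysosomal genes.
Dpp7: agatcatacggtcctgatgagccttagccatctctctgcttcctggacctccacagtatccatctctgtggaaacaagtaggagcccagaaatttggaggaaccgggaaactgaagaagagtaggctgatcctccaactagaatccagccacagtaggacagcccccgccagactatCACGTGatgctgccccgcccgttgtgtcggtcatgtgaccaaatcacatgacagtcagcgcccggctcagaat
The E-box begins 73 bases before the start and also holds ACGTG on each strand. Of the 32851 windows 6.02% held CACGTG, and the windows of the 7 members with an entry did not. At that share, 7 windows are too few to set Dpp7 apart. Uap1l1 had no entry, and a match is no proof of binding.

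Genes that use, move or break down UDP-GlcNAc and related sugars were read in the same fit, in 8 lists of 66 genes, 61 of them with enough counts. EdgeR called 0 of the 61 (background 0.0%), as did DESeq2 (2.78%) and limma voom (0.00713%), though DESeq2 gave no adjusted p for Npl. At an unadjusted p below 0.05, 4 were higher in TG (background 8.68%) and 0 lower (2.37%), and in 7 all TG livers lay above all WT livers (9.22%). The median log2 fold change was 0.07 over the 61 and -0.03 over all genes tested. Nanp, Mgat3, Has1, Has2 and Has3 had too few counts, 12 or fewer in any library, so that the hyaluronan synthases were at or near the limit of detection.

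The list of amino sugar salvage and breakdown lay above 0 in all 12 of its genes, with a median of 0.26, where 6483 of 14031 genes tested lay above 0; with library size only all 12 were again above 0, with a median of 0.40 against 0.09 over all genes. Hexa encodes a subunit of beta-hexosaminidase, which frees N-acetylglucosamine in lysosomes. Hexa averaged 80.9 ± 15.5 CPM in TG livers against 57.2 ± 11.8 in WT livers, and Neu1, the lysosomal sialidase, averaged 64.2 ± 5.13 and 46.2 ± 17 CPM (SD, n = 3 each; edgeR adjusted p = 0.457 and 0.570). Npl, which splits sialic acid, lay at 1.03 ± 0.518 against 0.474 ± 0.286 CPM (adjusted p = 0.584). In WT replicate 2 Npl was at 0.151 CPM, less than a count of 3, and its groups overlapped.

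The enzymes that take hexosamine phosphates back out of the pathway lay within the spread between mice. Amdhd2, the deacetylase of N-acetylglucosamine 6-phosphate, averaged 23.7 ± 4.17 CPM in TG livers against 20.4 ± 6.83 in WT livers. Gnpda1, a deaminase of glucosamine 6-phosphate, lay at 17.2 ± 2.97 and 14.3 ± 3.95 CPM, and its relative Gnpda2 at 2.40 ± 0.314 and 2.36 ± 0.384 CPM (SD, n = 3 each). The edgeR adjusted p-values of Amdhd2, Gnpda1 and Gnpda2 were 0.805, 0.746 and 0.986. Without 1 library, between 10 and 12 of the 12 genes of the list lay above 0; it was 10 without WT replicate 3, with a median of 0.18, and the median was 0.48 without WT replicate 2.

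Sialic acid synthesis starts from UDP-GlcNAc through Gne, which was the most abundant gene of its list. Gne measured 121, 164 and 190 CPM in the TG livers against 179, 252 and 207 CPM in the WT livers, with a log2 fold change of -0.43 and an SE of 0.24 (edgeR adjusted p = 0.584). TG replicate 3 lay within the WT range and the other TG livers below it. Slc35a1, the carrier of CMP-sialic acid into the Golgi, averaged 15.2 ± 3.17 CPM in TG livers against 19.5 ± 4.18 in WT livers, and Cmas, which makes CMP-sialic acid, averaged 50.6 ± 6.47 and 52.9 ± 9.39 CPM (SD, n = 3 each). Nans, the sialic acid phosphate synthase, measured 8.14, 19.6 and 22.2 CPM in the TG livers against 8.45, 7.94 and 25.5 CPM in the WT livers, so that it varied more between mice than between groups.

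Of the steps that pass N-acetylglucosamine on to glycans, the first of the N-glycan pathway, Dpagt1, averaged 32.0 ± 10.7 CPM in TG livers against 33.9 ± 11 in WT livers (SD, n = 3 each; edgeR adjusted p = 0.946). The list of lipid-linked precursor genes had 2 of 8 above 0, with a median of -0.08, but 5 of 8 with library size only (median 0.048) or without TG replicate 2 (0.030), and a median of 0.012 without WT replicate 3. Slc35a3, the carrier of UDP-GlcNAc into the Golgi, lay at 80.8 ± 8.29 and 84.2 ± 9.56 CPM (edgeR adjusted p = 0.923). All 5 nucleotide sugar transporters lay below 0, with a median of -0.10, but 4 of 5 lay above 0 with library size only, and the median ran from -0.25 to -0.035 with 1 library left out. Among the transferases that branch N-glycans, Mgat5 measured 17.1, 33.6 and 18.0 CPM in the TG livers against 15.7, 11.1 and 11.1 CPM in the WT livers. All TG livers were above all WT livers, TG replicate 2 by far the highest, and the log2 fold change was 0.86 with an SE of 0.31 (edgeR unadjusted p = 0.0257, adjusted p = 0.386). Without TG replicate 2 the log2 fold change of Mgat5 was 0.48 (edgeR adjusted p = 0.935). Mgat4a lay at 4.58 ± 1.80 against 2.00 ± 0.919 CPM (unadjusted p = 0.0399, adjusted p = 0.422), with TG replicate 3 inside the WT range. The list's median was 0.12 over 5 genes, and 0.093 to 0.33 with 1 library left out.

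Of 10 other users of the sugar nucleotides, 8 lay above 0 and 2 below, with a median log2 fold change of 0.22. Without TG replicate 2 it was 6 of 11 genes tested, with a median of 0.032, without WT replicate 3 it was 6 of 10, and without WT replicate 2 the median was 0.12. Mfng, a Fringe transferase that extends O-fucose on Notch receptors, averaged 2.02 ± 0.214 CPM in TG livers against 0.952 ± 0.499 in WT livers (SD, n = 3 each; edgeR unadjusted p = 0.0449, adjusted p = 0.434). Piga, the catalytic subunit that starts GPI anchors, measured 13, 12.4 and 13.6 CPM in the TG livers against 7.37, 9.91 and 11.1 CPM in the WT livers. Extl3, which acts at the start of heparan sulfate chains, lay at 40.6 ± 1.00 against 32.8 ± 5.41 CPM. Lfng, another Fringe transferase, averaged 7.54 ± 4.49 against 3.70 ± 1.89 CPM (edgeR adjusted p = 0.590), with overlapping groups. For Mfng, Piga and Extl3 all TG livers lay above all WT livers, and none passed the test (edgeR adjusted p = 0.506 for Piga and 0.557 for Extl3).

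Like Gfpt1, some neighbour genes were highest in WT replicate 3. Gpi1 encodes the isomerase that makes fructose 6-phosphate, the substrate of the first step. Gpi1 measured 187, 172 and 213 CPM in the TG livers against 150, 195 and 499 CPM in the WT livers. Mgat2, a transferase of complex N-glycans, measured 33.9, 47.4 and 54.6 CPM in the TG livers against 36.1, 45.8 and 98.1 CPM in the WT livers. In both genes, as in Gfpt1, WT replicate 3 was the highest liver and TG replicate 3 the second, and without WT replicate 3 their log2 fold changes turned from -0.56 to 0.14 and from -0.41 to 0.15. Slc35d2, a Golgi carrier of nucleotide sugars, was highest in WT replicate 3 too, at 59.0 CPM against 20.8 to 38.9 CPM in the other 5 livers (edgeR adjusted p = 0.519). Of the sugar phosphate enzymes, Pgm1 averaged 194 ± 27.6 CPM in TG livers against 245 ± 64.7 in WT livers, Pgm2 averaged 13.8 ± 1.90 and 9.15 ± 4.6 CPM, and Galk1 averaged 70.7 ± 9.33 and 104 ± 51.3 CPM (SD, n = 3 each; edgeR adjusted p = 0.684, 0.591 and 0.598).

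**Figure D5:**
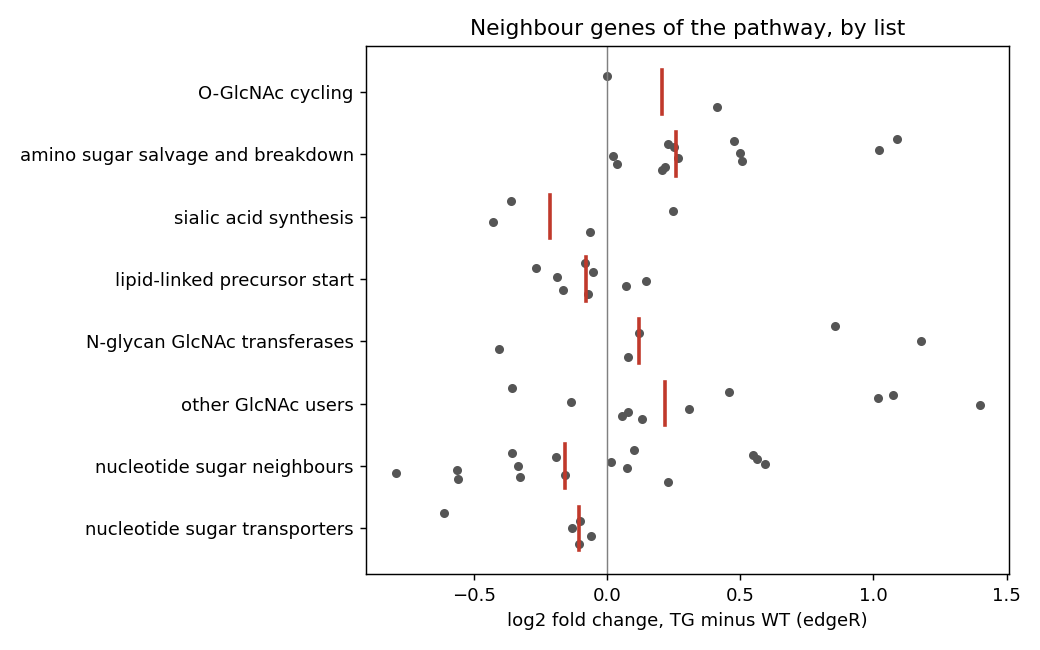
Log2 fold change, TG minus WT, from edgeR for the 61 tested neighbour genes (grey points) in 8 lists (rows), with the list median as a red line. All 12 genes of amino sugar salvage and breakdown lie above 0 with a median of 0.26, and none of the 61 passed an adjusted p of 0.05.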

How the data were processed

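Liver RNA of 3 TG and 3 WT mice was sequenced, 1 library each. The authors deposited 1 table of raw read counts per Ensembl gene, not normalized, with 52550 rows. Per the submitters' processing notes, TopHat, Cufflinks and build mm10 were used; no source used here gives the counting program, its annotation or whether strand was used. The labels' molecule field names genomic DNA, while the protocols describe RNA and the values were treated as RNA counts. Symbols, coordinates and exon lengths came from GENCODE M21 (GRCm38, the same build) and matched 52403 rows. Genes were filtered with filterByExpr, scaled by TMM and compared with edgeR 4.0.16 (quasi-likelihood, robust, R 4.3.3) by group, two-sided. SE is the log2 fold change over the root of F. DESeq2 1.42.0, limma voom 3.58.1, other scalings and filters, a replicate block and leaving out each library were alternatives. The fits were tested on simulated data. P-values measure the spread between these mice. The members, the lists and the rule for named genes (all members, up to 4 genes of smallest p per list, the first consumers of products, and the 5 genes most like Uap1l1) were chosen with earlier results of these data known; the promoters, motifs and the genes around Uap1l1 were added after the values were seen. Some genes that the rule names are not reported here. Depth was 16016640 to 17463329 counts per library.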

Additional observations from a re-analysis of the deposited data

How the results depend on the processing

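The count over all genes was 0 with edgeR; it was 390 with DESeq2 and 1 with limma voom, and 0 to 305 over the libraries left out in turn, 305 without TG replicate 3; the cause was not tested. The 8 members beside Uap1l1 gave 0 calls in each of the 13 alternatives, as did the neighbour genes, and adjusted p for the members lay between 0.216 and 0.998. The log2 fold changes of Uap1, Gnpnat1, Nagk, Renbp and Gfpt2 kept their sign in every alternative run. With 1 library left out they ran from -0.62 to -0.17 for Uap1 and from -0.62 to -0.38 for Gnpnat1. The same range was 0.24 to 0.41 for Nagk, 0.52 to 0.95 for Renbp and 0.26 to 1.24 for Gfpt2. Gfpt2 was not tested at a mean of at least 1 CPM and had no adjusted p with DESeq2. Uap1l1 kept its sign too, which is no support, since the set was chosen on its rise in all TG livers. Over the libraries left out in turn, values whose sign turned ran from -0.57 to 0.55 for Gfpt1, from -0.10 to 0.22 for Pgm3, from -0.21 to 0.11 for Ogt, from -0.20 to 0.055 for Cmas, from -0.42 to 0.20 for Dpagt1, from -0.062 to 0.16 for Gnpda2, from -0.87 to 0.14 for Gpi1, from -0.67 to 0.15 for Mgat2, from -0.053 to 1.02 for Nans, from -0.12 to 0.22 for Oga and from -0.17 to 0.031 for Slc35a3. With library size only, which moved the median of all genes from -0.03 to 0.09, the values were 0.016 for Ogt, 0.075 for Cmas, 0.030 for Dpagt1 and 0.077 for Slc35a3. Oga was -0.0074 with DESeq2's size factors in edgeR, -0.0077 with DESeq2 and -0.0079 with no filter on low counts. The difference in the share of Gfpt2 ran from 0.584 to 3.80 percentage points over the libraries left out, and that of Uap1l1 from 21.3 to 28.1. The deviations from the group mean of mice with the same replicate number had an r of 0.14, -0.22 and 0.098. Mice with unlike numbers gave an r from -0.25 to 0.13. With 3 mice per group these values cannot decide whether the number pairs mice. With the replicate block edgeR called 0 genes, with 1109 at an unadjusted p below 0.05 against 1551 without it. The log2 fold change of Uap1l1 was then 1.18.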
